A study of Homo sapiens with 52 samples.

Results

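The MYC and MAX network is a family of transcription factors that compete for one partner, MAX. Transcript levels of 10 of its genes (MYC, MYCN, MYCL, MAX, MXD1, MXD3, MXD4, MXI1, MNT and MLX), out of 27043 genes in each table, were followed in all 52 RNA-seq samples of the series. The members were taken by gene name. Each was listed with a TPM (a gene's share of all transcripts, corrected for length) of at least 1 in all 52 samples and passed the filter on low values, so none was lost.

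All samples came from FP-RMS cells, that is, cells of a fusion-positive rhabdomyosarcoma line carrying PAX3-FOXO1. Rhabdomyosarcoma is a childhood tumour of the skeletal muscle lineage, and PAX3-FOXO1 is the fusion transcription factor that drives this subtype. In the screen, 40 samples were exposed for 6 h to 1 of 20 compounds, each at a high dose (10 µM, or 5 µM for LAQ824, Cpd50 and GSKJ4) and at a low dose that was 10 times lower. The 4 screen controls held 0.2% DMSO (2 libraries, the match of the high dose) or 0.1% DMSO (2 libraries, the match of the low dose). A further sample received N1302 at 1 µM for 6 h and had 1 DMSO 0.1% control. The last 6 samples were entinostat at 1 µM and DMSO 0.1% at 1, 6 and 24 h, with 1 sample per point. The titles of the screen samples give RH41 as the line while their cell line label gives RH4, and the N1302 and entinostat samples carry RH4 in both fields. For this reason no change was computed between screen samples and RH4-titled samples. All values describe cultured lines with no separate culture stated for any pair of samples, so p-values measure only the spread between these samples. In the screen fit that spread includes the difference between the 2 doses of a compound and is pooled over all compounds.

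The tables are in TPM, which turned out to be whole reads divided by a fixed length for every gene, so that the reads could be recovered. Depth ran from 5737939 to 41415071 reads per sample. The members held between 33 reads (MXD1, its lowest sample) and 3463 reads (MYC, its highest). The 2 DMSO libraries of one concentration came from different flow cells and differed, beyond the flow cell, by no more than counting noise (1.02 times the noise variance over 10378 genes), so each concentration was counted as 1 sample and n for DMSO is 2. Of the 20 compounds, 14 were sequenced on 1 flow cell that carried no DMSO, called the flow cell without DMSO below. GSKLSD1 and UNC-1215 were on another flow cell that carried none, and their changes were not compared within it. Markers of FP-RMS were abundant (10 genes summing to between 2755 and 2888 TPM in the 4 screen DMSO samples), with CDH3 the 1 of the 10 below 1 TPM in all of them. All 8 markers of epithelial, blood, endothelial and liver cells were below 1 TPM in the same samples. Their sum was 0.304 to 0.609 TPM there and 0.282 to 3.36 TPM in the treated screen samples, where 7 of the 8 stayed below 1 TPM. The other, ALB, was at 2.80 and 2.81 TPM under LAQ824 (1.54, limma adjusted p = 0.000373) and at 2.99 TPM under bromosporin at 10 µM. ALB was also above 1 TPM at 10 µM of WT161 (1.83), SGC-CBP30 (1.42) and MC1568 (1.32 TPM). Its part in the network changes was not tested.

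MYC, MYCN and MYCL are basic helix-loop-helix leucine zipper proteins that bind the E-box CACGTG only as dimers with MAX, and as such dimers they activate genes of ribosome building, metabolism and the cell cycle. MXD1, MXD3, MXD4, MXI1 and MNT also dimerise with MAX, sit on the same E-boxes and bring SIN3 with its histone deacetylases to silence those genes. MLX is a MAX-like partner that dimerises with MNT, MXD1 and the glucose-sensing MondoA proteins. MYCN is a member of the transcription factor circuitry of PAX3-FOXO1 tumours, and MYC messenger RNA and protein are both short-lived.

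In DMSO the activating members and their partners stood above each of the repressors, of which MXD4 and MXD3 came close and MXI1, MNT and MXD1 were low. MLX stood highest with 74.1 ± 0.67 TPM (SD, n = 2 concentrations), followed by MYC with 64.4 ± 2.7, MYCL with 61.0 ± 2.5, MYCN with 55.1 ± 2.4 and MAX with 51.998 ± 1.3 TPM. The repressors followed with MXD4 at 42.6 ± 3.0, MXD3 at 31.8 ± 0.52, MXI1 at 12.7 ± 0.70, MNT at 12.6 ± 0.52 and MXD1 at 2.83 ± 0.52 TPM. TPM is a level per transcript length, so these values can be ordered. Within that order the DMSO libraries of MYC (62.4 to 69.7 TPM) and MYCL (59.0 to 65.5) overlapped, as did those of MXI1 (12.1 to 13.2) and MNT (11.5 to 13.6). MYCN (53.3 to 57.5) and MAX (50.04 to 52.97) did not overlap. Between 0.2% and 0.1% DMSO, 0 of the 10 members and 0 of 16359 genes passed limma's test at an adjusted p below 0.05 (background 0.0%), while 1548 genes (9.46%) were below 0.05 with no adjustment. Of the members, MYCN (-0.09, 0.2% minus 0.1% on the log2 scale) and MXD1 (0.28) were among these, with limma adjusted p-values of 0.511 and 0.527.

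The 4 RH4-titled DMSO samples had another balance. MYC reached 59.9 to 92.4 TPM there, while MYCL was listed at 34.1 to 36.6 and MXD4 at 12.8 to 15.5 TPM, both outside the range of the screen DMSO. MXD3 ran from 6.05 TPM in the control of N1302 to 26.4 TPM in the 24 h control of entinostat.

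On the deposited hg19 coordinates the members lie on 8 chromosomes and all are annotated as protein coding. MYC spans chr8:128748315-128753680 on the plus strand. MYCN spans chr2:16080560-16087129 on the plus strand and overlaps the start of its antisense gene MYCNOS, so reads in the overlap could belong to either, although MYCNOS was at or below 1.89 TPM on average in DMSO. MAX (chr14:65472819-65569413, minus strand) overlaps FNTB, MXD3 (chr5:176732501-176739292, minus) overlaps PRELID1 and MLX (chr17:40719078-40725221, plus) overlaps PSMC3IP. MYCL (chr1:40361096-40367687, minus), MXD1 (chr2:70142173-70170076, plus), MXI1 (chr10:111967363-112047123, plus) and MNT (chr17:2287354-2304258, minus) overlap no other gene of the tables, and MXD4 (chr4:2249160-2263739, minus) contains a microRNA gene.

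The screen asked which chromatin or signalling inhibitors change transcription in these cells. Each compound, with both doses as its 2 samples, was set against DMSO in 1 limma fit over all screen samples on log2(TPM + 1), and a change counts here when the adjusted p was below 0.05 and the size was at least 2-fold. Of 200 pairs of a member and a compound, 15 passed, 7 higher and 8 lower. Over all genes 3.28% of pairs passed (1.76% higher, 1.52% lower). All genes include low ones, whose differences this scale understates, so this is not the share among genes expressed like the members. Of the 15, 11 belonged to 4 compounds of the acetylation axis, 2 to Cpd50 and 2 to the MEK1/2 inhibitor trametinib. The acetylation axis held 7 inhibitors of histone deacetylases or of bromodomains that read acetylated lysine. In the grouping used here PFI-3 and trametinib were in neither the acetylation nor the methylation axis. The main text of the study does not name PFI-3. The falls were all of MYC or MYCN, 4 compounds each. The rises were all of repressors, with MXD1 and MXI1 under 3 compounds each and MNT under 1. MYCL, MAX, MXD3, MXD4 and MLX had no pair that passed. TPM is a share of the sampled RNA, so in these bulk samples a change per cell and a change in the mixture of cells cannot be told apart.

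**Figure D1:**
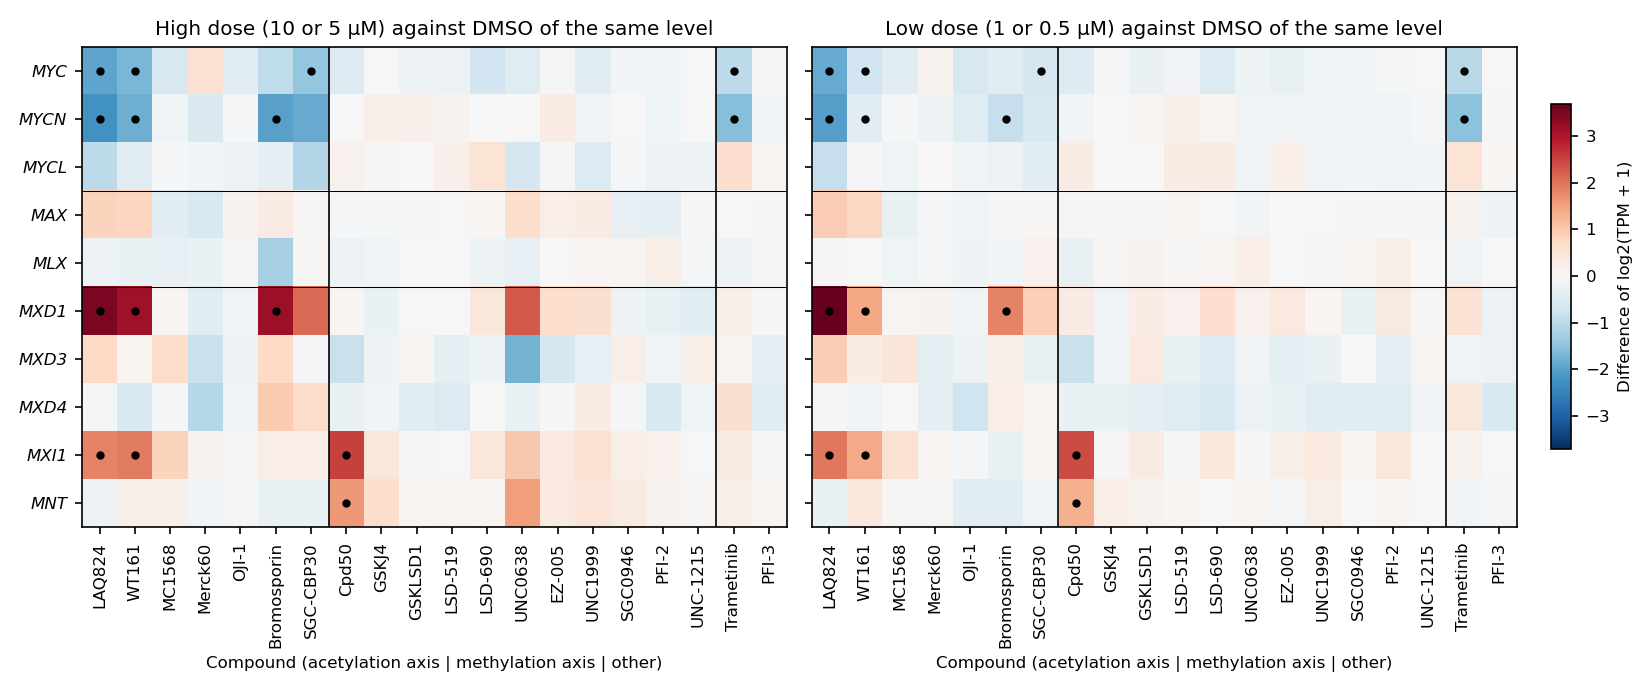
Difference of log2(TPM + 1) between each compound sample and the mean of the 2 DMSO libraries of the same level, for 10 members (rows) and 20 compounds (columns), high dose at left and low dose at right. Black dots mark the 15 pairs that passed the test over both doses. Blue cells gather in the MYC and MYCN rows and red cells in the MXD1 and MXI1 rows under LAQ824 and WT161.

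MYC was lowest under LAQ824, an inhibitor labelled for HDAC in general. It was listed at 15.4 TPM at 5 µM and 17.6 TPM at 0.5 µM, against 62.6, 62.4, 63.0 and 69.7 TPM in the DMSO libraries. Both samples lay far below all controls, with a difference of -1.91 ± 0.26 on the log2 scale (limma SE, adjusted p = 1.54e-06). The genes called under LAQ824 were many, 25.3% of all tested, so 4 of 10 members is set against that share. WT161, labelled for HDAC6, gave 18.7 TPM at 10 µM and 40.4 TPM at 1 µM (-1.20 ± 0.26, limma adjusted p = 0.001), with 10.4% of genes called. SGC-CBP30, which blocks the bromodomain of CREBBP and EP300, gave 22.7 and 42.9 TPM (-1.02 ± 0.26, limma adjusted p = 0.0247), with 1.23% of genes called. Trametinib, which blocks the MAP kinase pathway upstream of ERK, gave 31.5 and 31.7 TPM (-1.001 ± 0.26, limma adjusted p = 0.0314), with 1.14% of genes called. LAQ824 and trametinib thus gave nearly the same MYC level at both doses, while WT161 and SGC-CBP30 at the low dose lay between the high dose and DMSO.

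The calls for SGC-CBP30 and trametinib sat on the 2-fold line. Without the second library of 0.1% DMSO they were -0.98 and -0.97 and no longer passed. Set against the other compounds of the flow cell without DMSO, MYC was lower by 0.65 (SGC-CBP30), 0.63 (trametinib) and 0.84 (WT161) on the log2 scale. Each had an adjusted p below 0.05 by limma and was under 2-fold, where 2.03% of all pairs passed both thresholds. For each compound the reference was the mean of the others there. It included the others that lowered MYC, which makes these differences smaller. Over the screen 32 of the 40 treated samples had less MYC than any DMSO library. The part of the flow cell in this count was not tested. For LAQ824, against DMSO of its own flow cell, MYC was at -1.94 and MYCN at -2.14, with MXD1 at 3.52 and MXI1 at 1.88.

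Bromosporin, an inhibitor of many bromodomains, gave 32.3 and 50.8 TPM of MYC (-0.66 ± 0.26, limma adjusted p = 0.0477), under the 2-fold line. MC1568, labelled for HDAC4/5, gave 42.1 and 50.4 TPM and OJI-1, labelled for HDAC8, gave 46.3 and 43.4 TPM. Both lay below all DMSO libraries without passing the test. Merck60, labelled for HDAC1/2, was the opposite case, with 93.4 TPM at 10 µM and 72.7 TPM at 1 µM, the highest values of MYC in the screen. Its difference of 0.35 ± 0.26 did not pass (limma adjusted p = 0.883). Of the 11 methylation axis compounds none passed for MYC. The lowest of these was the LSD1 inhibitor LSD-690 with 37.6 and 46.1 TPM (-0.61 ± 0.26, limma adjusted p = 0.337).

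MYCN fell under LAQ824, WT161, bromosporin and trametinib. In DMSO its libraries held 53.3, 53.4, 56.2 and 57.5 TPM. LAQ824 gave 10.6 TPM at the high and 13.02 at the low dose (-2.13 ± 0.36, limma adjusted p = 3.03e-05), the first being the lowest MYCN value of the screen. Trametinib came next with 17.1 and 19.2 TPM (-1.55 ± 0.36, limma adjusted p = 0.0174). Bromosporin gave 12.5 TPM at 10 µM and 31.2 at 1 µM (-1.43 ± 0.36, limma adjusted p = 0.00395), and 13.0% of all genes were called under it. WT161 gave 14.5 and 42.4 TPM (-1.11 ± 0.36, limma adjusted p = 0.0212). All 8 of these samples lay below the DMSO range. Against the other compounds of that flow cell MYCN was at -1.20 under trametinib, -1.07 under bromosporin and -0.73 under WT161, the last under 2-fold. SGC-CBP30 gave 14.03 TPM at 10 µM and 38.2 at 1 µM, also below that range, yet its mean difference of -1.21 ± 0.36 missed the threshold (limma adjusted p = 0.0647).

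MYCN and MYC were not lowered alike by each compound. Bromosporin at 10 µM left MYCN at a log2 difference of -2.01 and MYC at -0.93 from matching DMSO, and trametinib at 10 µM left them at -1.59 and -0.96. No test of the difference between the genes was run. MYCN made up 29.4% to 31.5% of the summed MYC, MYCN and MYCL transcripts in DMSO, and 11.8% (10 µM) and 14.2% (1 µM) under trametinib. Under Merck60 at 10 µM MYCN was at 36.8 TPM while MYC was at its peak. Among the methylation axis compounds MYCN stayed between a mean difference of -0.15 (PFI-2, a SETD7 inhibitor) and 0.15 (GSKLSD1), and the spread was 0.11 (SD, n = 11 compounds).

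MYCL moved less and not always with the others. LAQ824 lowered it to 31.3 and 32.5 TPM (-0.91 ± 0.15, limma adjusted p = 2.4e-05) and SGC-CBP30 to 28.8 and 44.2 TPM (-0.75 ± 0.15, limma adjusted p = 0.00626), against 59.0 to 65.5 TPM in DMSO. Both are past the p threshold and under 2-fold. Trametinib, which lowered MYC and MYCN, left MYCL at 96.4 and 84.0 TPM, above all DMSO libraries (0.56 ± 0.15, limma adjusted p = 0.0486, again under 2-fold). LSD-690 at 10 µM gave 89.1 TPM and did not pass.

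**Figure D2:**
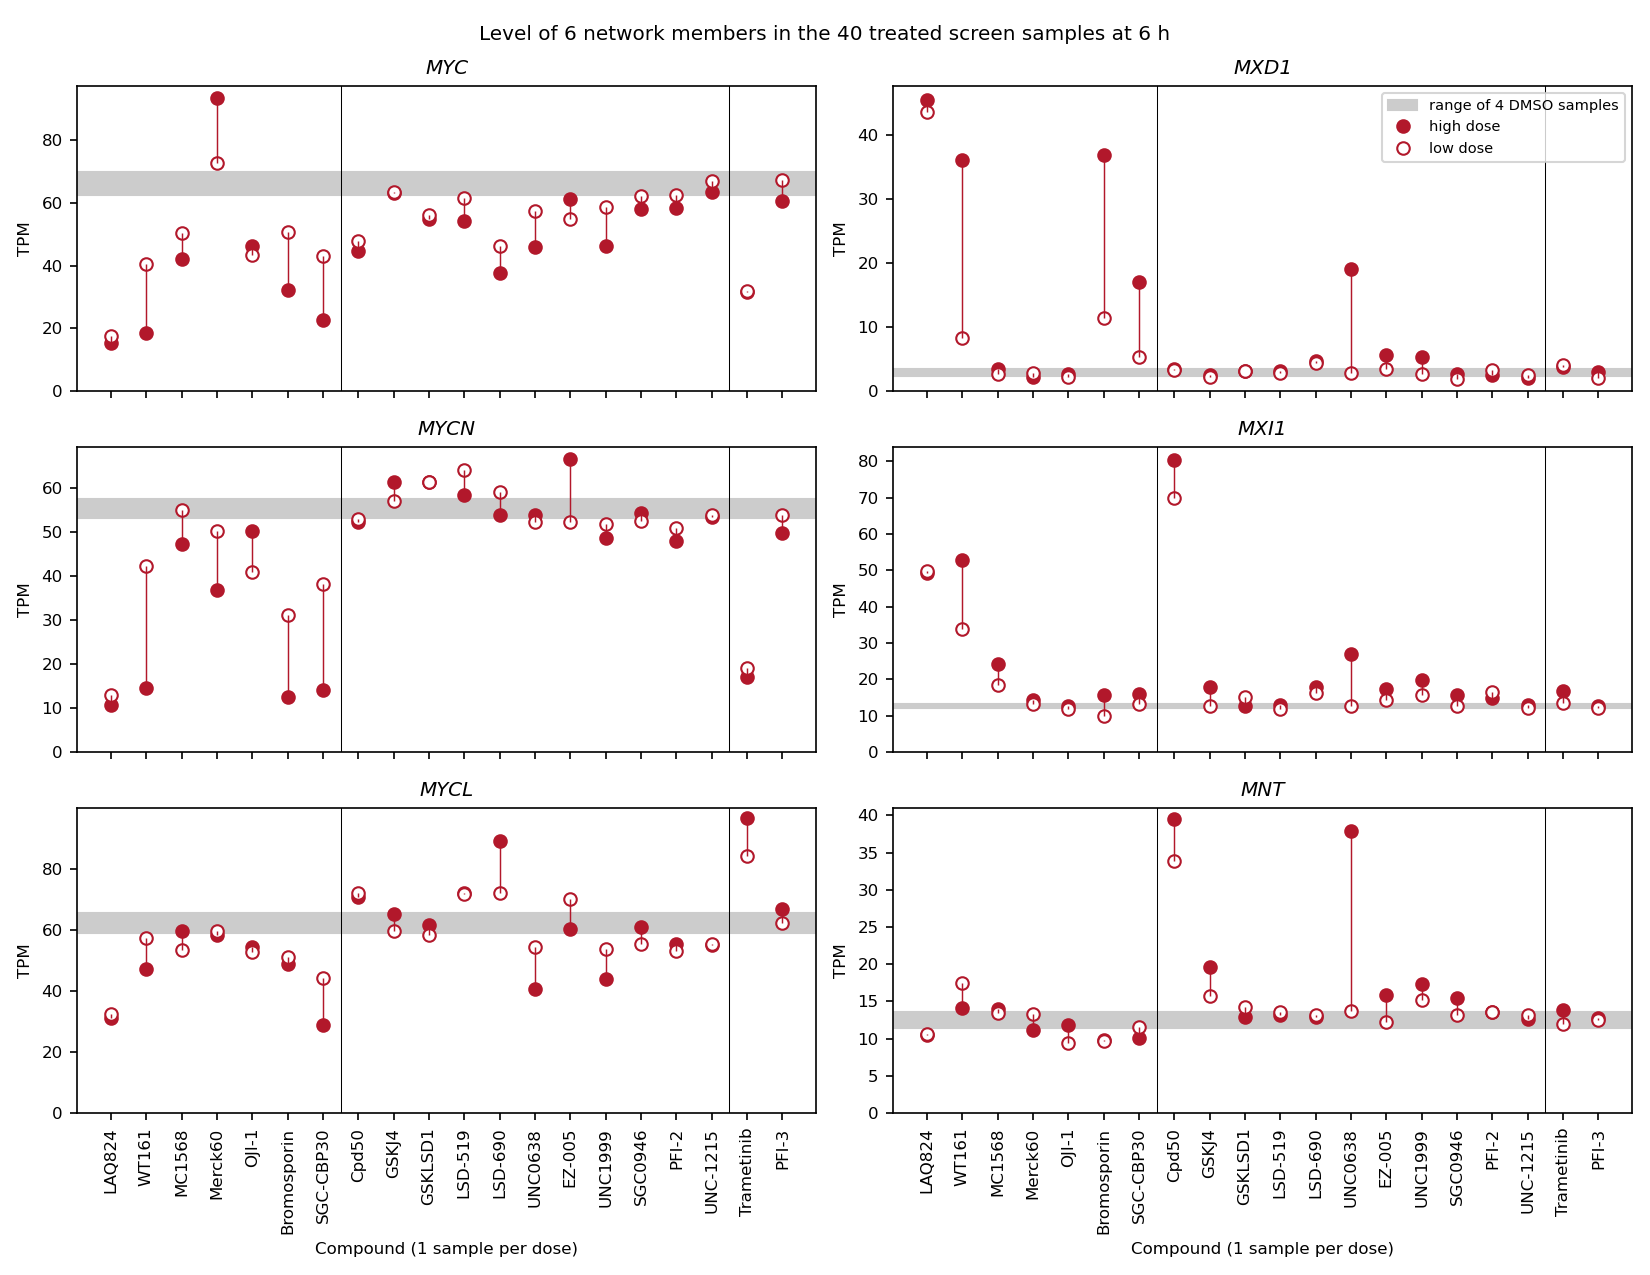
TPM of MYC, MYCN, MYCL, MXD1, MXI1 and MNT under each of 20 compounds, with filled points for the high dose, open points for the low dose and a grey band for the range of the 4 DMSO samples. LAQ824 points nearly coincide for MYC (15.4 and 17.6 TPM) while those of WT161 are apart (18.7 and 40.4 TPM), and MXI1 under Cpd50 stands above all other samples.

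MAX, the shared partner, had no pair that passed, although LAQ824 and WT161 were past the p threshold. LAQ824 gave 94.6 and 98.4 TPM (0.88 ± 0.18, limma adjusted p = 0.000312) and WT161 gave 92.2 and 87.05 TPM (0.77 ± 0.18, limma adjusted p = 0.0025), against 50.04 to 52.97 TPM in DMSO. These 4 samples were the highest of the screen for MAX. UNC0638, labelled for KMT1C, gave 84.0 TPM at 10 µM and 47.2 at 1 µM and did not pass. MLX was at 31.5 TPM under bromosporin at 10 µM and at 68.9 TPM at 1 µM, against 71.3 to 76.0 TPM in DMSO (-0.65 ± 0.21, limma adjusted p = 0.0152, under 2-fold). In every other treated sample of the screen MLX lay between 59.9 and 88.2 TPM.

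MXD1, a repressor that rises as many cell types leave the cell cycle, had the largest rises of any member in the screen. It was listed at 3.01, 3.39, 2.33 and 2.59 TPM in DMSO (80 to 156 reads). LAQ824 gave 45.6 and 43.7 TPM (3.58 ± 0.58, limma adjusted p = 1.76e-05). Bromosporin gave 36.9 TPM at 10 µM and 11.45 at 1 µM (2.51 ± 0.58, limma adjusted p = 0.00203), and WT161 gave 36.2 and 8.26 TPM (2.29 ± 0.58, limma adjusted p = 0.00419). All 6 samples lay above every control. Against the other compounds of the flow cell without DMSO, bromosporin (2.04) and WT161 (1.79) also passed. SGC-CBP30 (17.1 and 5.35 TPM, limma adjusted p = 0.171) and UNC0638 (19.1 and 2.84 TPM, limma adjusted p = 0.167) had a high value at 10 µM only and did not pass over both doses. Under Cpd50 MXD1 stayed at 3.44 and 3.28 TPM.

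MXI1, a repressor of the same family, rose under LAQ824 and WT161, as MXD1 did, and under Cpd50. Its DMSO libraries held 13.1, 13.2, 12.1 and 12.2 TPM. Cpd50, an inhibitor of Jumonji demethylases in general, gave 80.4 TPM at 5 µM and 69.7 TPM at 0.5 µM (2.47 ± 0.25, limma adjusted p = 1.73e-07), while 2.12% of all genes were called. LAQ824 gave 49.3 and 49.7 TPM (1.89 ± 0.25, limma adjusted p = 1.51e-06) and WT161 gave 52.7 and 34.0 TPM (1.67 ± 0.25, limma adjusted p = 3.31e-05). Within its flow cell WT161 stood 1.47 above the other compounds (limma adjusted p = 1.03e-06), and Cpd50 was 2.48 above DMSO of its own flow cell. Bromosporin, which raised MXD1, left MXI1 at 15.8 and 9.98 TPM (-0.01 ± 0.25). MC1568 gave 24.2 and 18.6 TPM (0.70 ± 0.25, limma adjusted p = 0.0472), above the DMSO range and under 2-fold. GSKJ4, labelled for the Jumonji enzymes JMJD3 and UTX, gave 17.9 and 12.6 TPM and did not pass.

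MNT, the repressor that many cells express throughout the cycle, rose under Cpd50 alone among the 20 compounds by the rule used here. It was at 39.5 and 33.8 TPM, against 12.98, 11.5, 13.6 and 12.3 TPM in DMSO (1.47 ± 0.25, limma adjusted p = 0.000257). UNC0638 gave 37.9 TPM at 10 µM, close to the level under Cpd50, and 13.7 TPM at 1 µM (0.82 ± 0.25, limma adjusted p = 0.0333, under 2-fold). Under LAQ824 MNT was at 10.5 and 10.7 TPM (-0.23 ± 0.25, limma adjusted p = 0.46). Another scaling moved the median of all genes by 0.118 under Cpd50, 0.110 under bromosporin and 0.105 under UNC0638 on the log2 scale, and every pair that passed did so under that scaling too.

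MXD3 and MXD4 had no pair that passed. MXD3, which is expressed in dividing cells, was at 54.4 and 59.3 TPM under LAQ824 (0.82 ± 0.29, limma adjusted p = 0.019) and at 8.94 TPM under UNC0638 at 10 µM, with 28.9 TPM at 1 µM (-0.93 ± 0.29, limma adjusted p = 0.037), against 31.3 to 32.8 TPM in DMSO. Both were under 2-fold. Cpd50 gave 17.6 and 17.4 TPM of MXD3, below all controls, without passing (limma adjusted p = 0.0994). MXD4 was highest under bromosporin at 10 µM (87.8 TPM) and SGC-CBP30 at 10 µM (72.7 TPM) and lowest under Merck60 at 10 µM (21.2 TPM), against 38.5 to 45.7 TPM in DMSO.

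The stretches before the transcription start of the 3 repressors that rose are given because they show whether the network's own E-box is present. They run from 250 to 101 bases before the RefSeq start (GRCh38.p14) and are read 5′ to 3′ on the gene's strand, at chr2:69914859-69915008 (plus, MXD1), chr10:110209981-110210130 (plus, the second of 3 RefSeq starts of MXI1) and chr17:2401161-2401310 (minus, MNT). Capitals mark ACGTG or its reverse complement CACGT, the core that E-boxes and hypoxia response elements share. CACGTG holds one on each strand, so these matches overlap.
MXD1: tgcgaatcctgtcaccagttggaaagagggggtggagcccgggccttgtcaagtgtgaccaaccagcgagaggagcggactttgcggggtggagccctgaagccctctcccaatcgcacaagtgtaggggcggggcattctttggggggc
MXI1: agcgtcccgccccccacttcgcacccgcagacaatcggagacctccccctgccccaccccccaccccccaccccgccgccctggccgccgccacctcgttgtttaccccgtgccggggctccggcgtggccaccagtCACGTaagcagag
MNT: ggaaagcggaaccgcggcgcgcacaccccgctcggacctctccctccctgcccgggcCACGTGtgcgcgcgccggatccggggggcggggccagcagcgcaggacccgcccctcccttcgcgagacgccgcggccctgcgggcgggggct
The MNT stretch holds the full palindrome CACGTG and the MXD1 stretch holds neither form. The MXI1 stretch printed holds CACGT alone, while those before its other starts hold neither. Over the whole 250 bases before a start, CACGTG was in 3 of the 12 windows of the 9 members matched in the RefSeq table (MNT, MXD4 and MLX) and in 6.34% of 35116 windows of 250 bases. The shorter core was in 5 of the 12 windows and in 18.5% of all. Counted by gene, with any start, these are 3 and 5 of 9 members, against 7.73% and 21.7% of 27305 genes. The TPM of a gene does not tell which of the MXI1 starts was used.

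Summed over members, MYC, MYCN and MYCL exceeded the 5 repressors by 1.67 to 1.84 times in DMSO. The ratio was below 1 in 6 of the 40 treated samples. These were LAQ824 at 5 µM (0.283) and 0.5 µM (0.308), SGC-CBP30 at 10 µM (0.445), bromosporin at 10 µM (0.456), WT161 at 10 µM (0.477) and Cpd50 at 5 µM (0.942). Under Cpd50 the sum of the activators was 168 TPM, near the 176 to 186 TPM of DMSO, and that of the repressors was 178 TPM against 97.8 to 106 TPM. The sums weigh transcripts only and are given with no test.

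**Figure D3:**
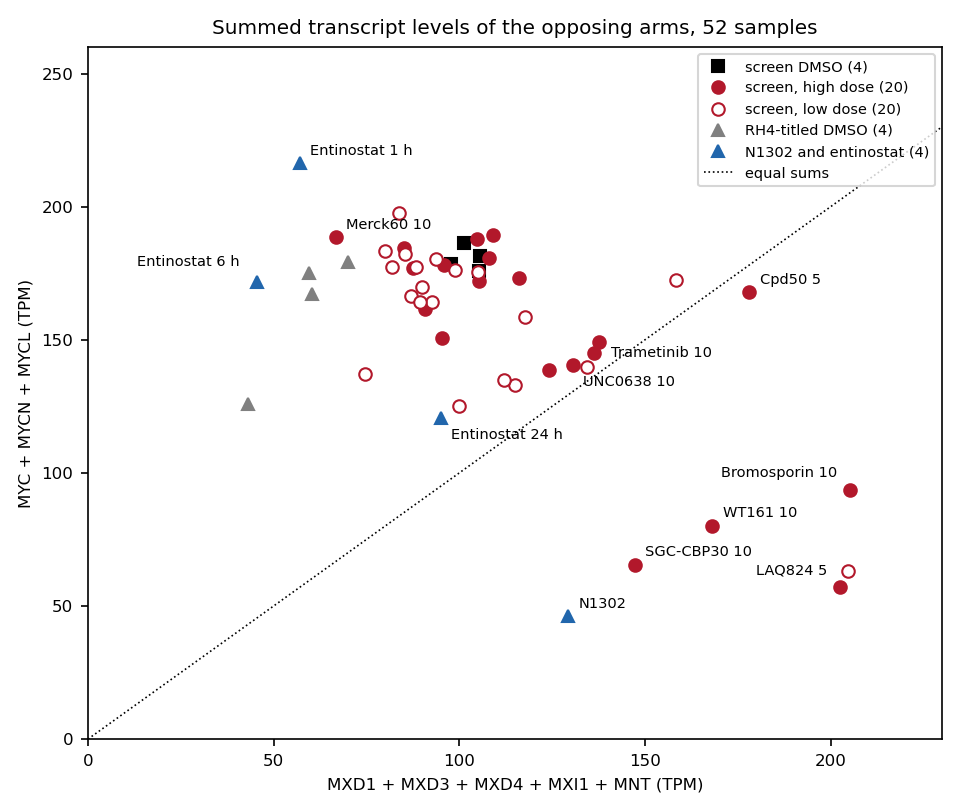
Sum of MYC, MYCN and MYCL (TPM, vertical) against the sum of MXD1, MXD3, MXD4, MXI1 and MNT (TPM, horizontal), 1 point per sample for 52 samples. The dotted line marks equal sums, and the 2 LAQ824 samples (0.283 and 0.308) and N1302 (0.357) have the lowest ratios of the vertical to the horizontal sum.

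The study set compounds of an acetylation axis against those of a methylation axis, and the members were compared between them with compounds as the units. In this comparison a gene passed at an adjusted p below 0.05, with no fold threshold. PFI-3 (mean change of MYCN -0.09, of MYC -0.01) and trametinib (-1.55 and -1.001) were placed in neither axis here and were left out. No fit with PFI-3 in the acetylation axis was run. MYCN was lower in all 7 acetylation axis compounds (mean change -0.94 ± 0.74 SD) and near 0 in the 11 methylation axis compounds (0.01 ± 0.11), a difference of -0.95 ± 0.21 that missed the threshold (limma adjusted p = 0.0568). MYC differed by -0.55 ± 0.20 (limma adjusted p = 0.0892) and MXD1 by 1.16 ± 0.43 (limma adjusted p = 0.0885). By limma, 0 of 10 members and 0 of 16359 genes passed (background 0.0%), while 5018 genes, 30.7%, were below 0.05 with no adjustment. With the 5 and 7 compounds of the flow cell without DMSO alone, the difference of MYCN was -0.86 (limma adjusted p = 0.227) and that of MYC -0.36 (limma adjusted p = 0.394). At the high dose alone MYCN differed by -1.29 and passed (limma adjusted p = 0.0364), where 1614 of 16359 genes passed. Leaving out MC1568, Merck60 or OJI-1, the 3 acetylation axis compounds with the smallest changes of MYCN, also let it pass, at -1.09, -1.05 and -1.06. Of all genes 2503, 2673 (16.3%) and 3056 passed in these fits. Without Merck60 5 of 10 members were past the threshold, and without MC1568 or OJI-1 2 members were.

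**Figure D4:**
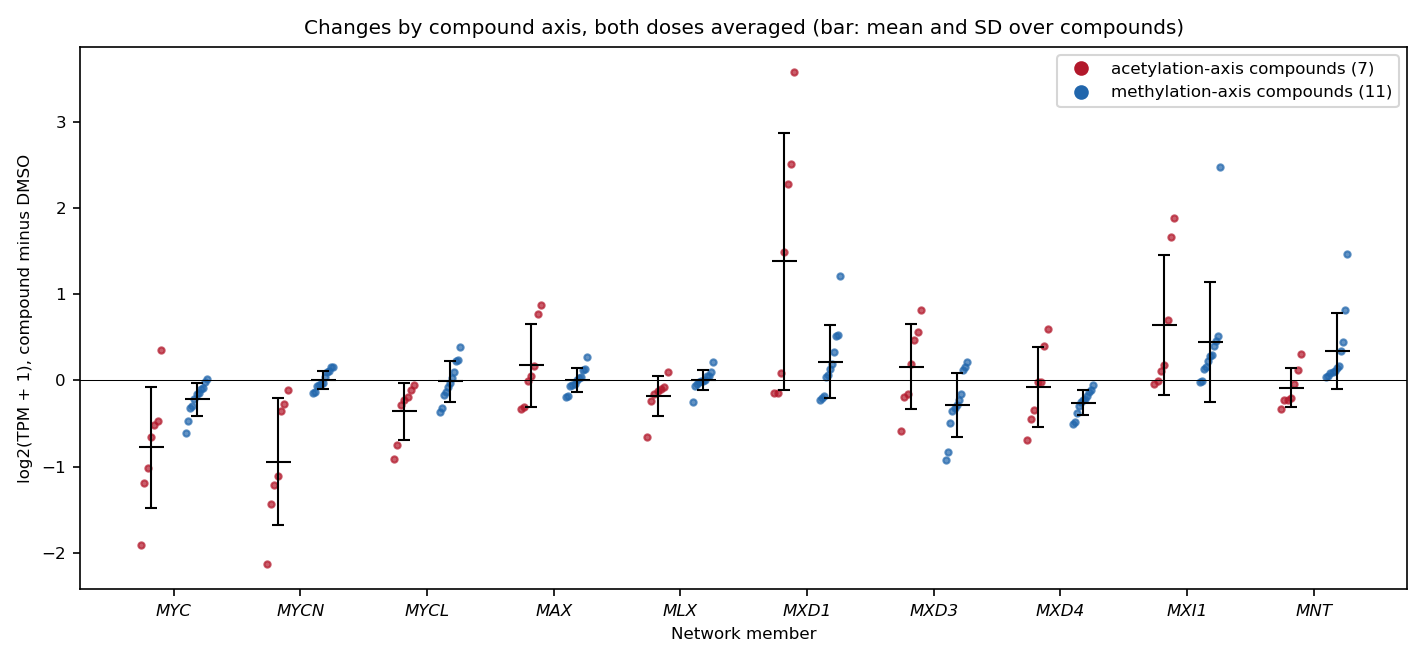
Change of log2(TPM + 1) against DMSO, both doses averaged, for each acetylation axis compound (7, red) and methylation axis compound (11, blue), by member, with bars for the mean and SD over compounds. The red points of MYCN all lie below 0 (mean -0.94) and the blue points scatter closely around it, while the spread of MXD1 among the red points is wide.

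N1302, a histone deacetylase inhibitor, was given to RH4-titled cells at 1 µM for 6 h, with 1 sample per condition and hence no replicate check. MYC went from 59.9 TPM in its DMSO sample to 17.3 TPM, and MYCN from 29.4 to 8.10 TPM. On the log2(TPM + 1) scale these are -1.73 and -1.74. The 95% exact binomial interval of the ratio, which covers counting error only, ran from -1.98 to -1.61 for MYC and from -2.11 to -1.63 for MYCN. MXD1 went from 3.17 to 35.9 TPM (3.15) and MXI1 from 15.8 to 41.8 TPM (1.35). MXD3 went from 6.05 to 24.6 TPM (1.86), but this control was the lowest MXD3 value of the series and the 6 h DMSO sample of the entinostat series held 21.3 TPM. With both DMSO samples averaged the MXD3 difference was 1.03. MAX went from 42.9 to 66.2 TPM, MYCL from 36.6 to 20.7 TPM and MXD4 from 12.8 to 21.6 TPM, each under 2-fold, although MXD4 reached 1.04 with median-ratio scaling, which raised every N1302 value. MNT (5.20 and 5.26 TPM) and MLX (61.4 and 63.1 TPM) had intervals that include 0 on the deposited scale. In all, 3 members were at least 2-fold higher and 2 lower, while 30.9% of all genes passed that line (11.6% higher, 19.3% lower).

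Entinostat, labelled for HDAC1/2/3, was followed over time at 1 µM. MYC was above its control at 1 h (125 against 88.4 TPM) and 6 h (107 against 89.98 TPM) and below it at 24 h (59.1 against 92.4 TPM). The log2 differences were 0.50, 0.24 and -0.64, and none of their counting intervals includes 0. MYCN was at 54.2 against 44.6 TPM at 1 h, at 28.7 against 49.3 TPM at 6 h and at 20.7 against 50.4 TPM at 24 h (0.28, -0.76 and -1.25). At 6 h, then, MYCN was below and MYC above the control. MYCL differed from its control by 0.10, 0.03 and 0.15 on that scale.

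Of the repressors, MXI1 was at 9.87 against 10.1 TPM at 1 h, 13.5 against 11.1 TPM at 6 h and 40.8 against 12.97 TPM at 24 h (1.58 at 24 h). MXD4 was at 6.70 against 14.2 TPM at 6 h (-0.98) and at 32.3 against 15.5 TPM at 24 h (1.02). MXD3 was at 11.9 against 26.4 TPM at 24 h (-1.09). MXD1, which was 35.9 TPM under N1302, held 1.56, 1.62 and 2.74 TPM under entinostat at 1, 6 and 24 h, with controls at 2.25, 1.86 and 2.17 TPM. MNT was at 6.70 against 11.1 TPM at 6 h and 7.23 against 13.03 TPM at 24 h. MAX was at 30.8 against 56.0 TPM at 6 h and 45.1 against 50.8 TPM at 24 h. At 1 h 0 of 10 members were at least 2-fold apart, against 1.24% of all genes (0.66% higher, 0.581% lower). At 6 h it was again 0 of 10 on the log2(TPM + 1) scale, against 6.08% (5.13% higher, 0.947% lower), although MXD4 without the pseudocount was at -1.09 (interval -1.28 to -0.89). At 24 h 2 members were higher and 2 lower, against 22.4% of genes (16.4% higher, 6.06% lower). The 6 h values of N1302 and of entinostat come from different controls and were not tested against each other.

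**Figure D5:**
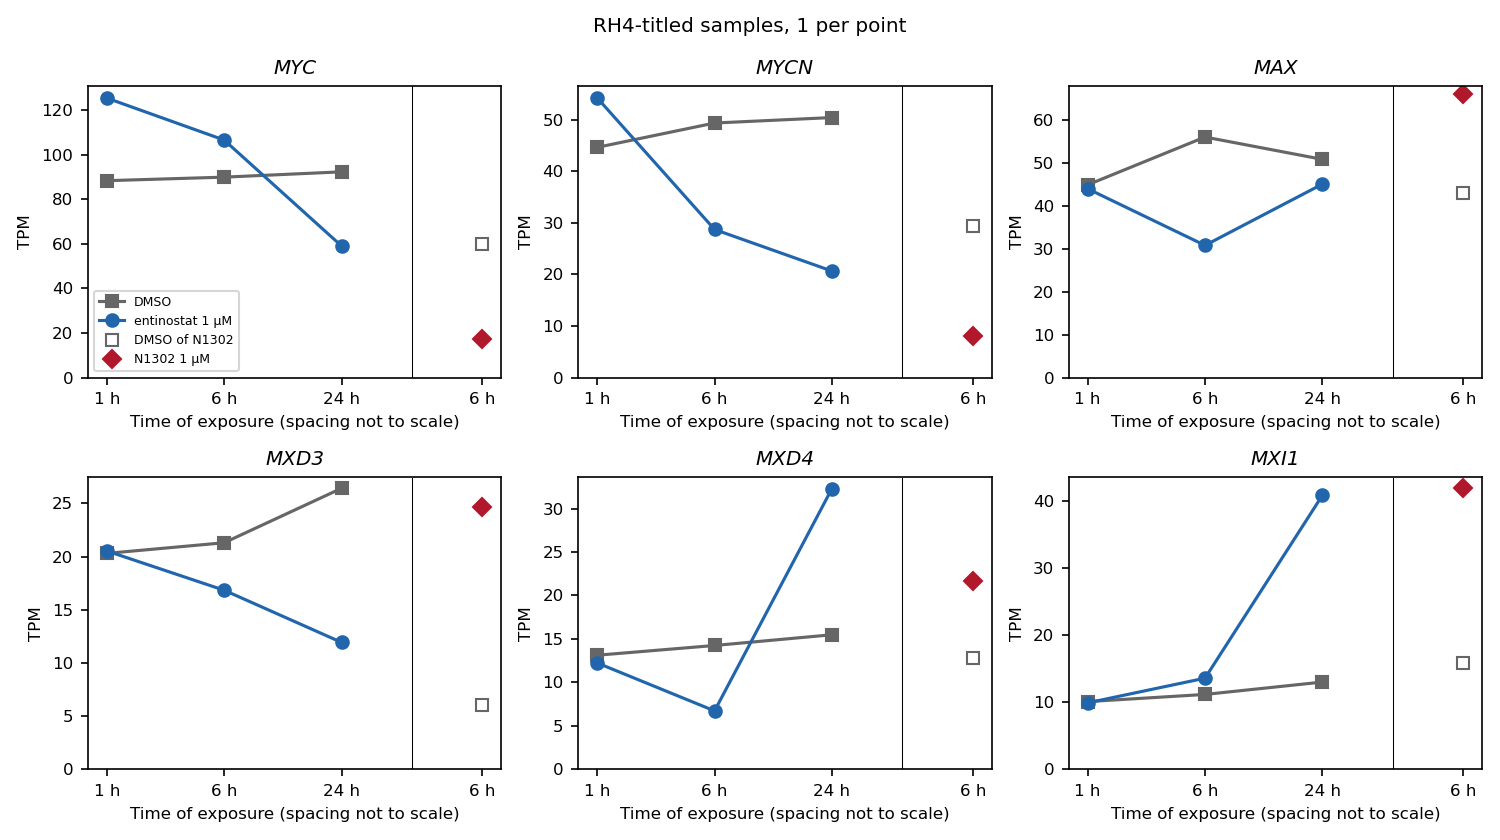
TPM of MYC, MYCN, MAX, MXD3, MXD4 and MXI1 under entinostat (blue) and DMSO (grey) at 1, 6 and 24 h, and, right of the line, under N1302 (red) and its DMSO (open square) at 6 h, 1 sample per point. The MYC lines cross between 6 and 24 h (107 against 89.98, then 59.1 against 92.4 TPM), and the control of N1302 lies apart from the other 6 h control for MXD3.

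Of 12 tested network partners (SIN3, NuA4 and Mondo proteins among them; 14 were listed), 3 of 240 pairs (1.25%, against 3.28% of all pairs) passed, all lower and all KAT5, the acetyltransferase that MYC recruits. KAT5 was at 5.59 and 13.1 TPM under bromosporin (-1.20, limma adjusted p = 0.000651), 5.90 and 7.58 TPM under LAQ824 (-1.53) and 7.59 and 9.57 TPM under WT161 (-1.22), against a mean of 19.3 TPM in 0.2% and 23.3 TPM in 0.1% DMSO. Of 200 pairs with the 10 genes of MYC protein turnover, 2 were higher and 4 lower, 3.0% in all, near the 3.28% of all pairs. FBXW7, the ubiquitin ligase that marks MYC for destruction, was higher under bromosporin (1.12) and WT161 (1.06). USP7 (-1.87), HUWE1 (-1.16) and SKP2 (-2.16) were lower under LAQ824, and SKP2 was lower under WT161 (-1.10). All these pairs had limma adjusted p-values below 0.001.

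Of 640 pairs with 32 tested genes (34 listed) of textbook MYC targets, 7 were higher and 9 lower, 2.5% against 3.28% of all pairs. Their median change was -0.38 under LAQ824 (all genes 0.06), -0.28 under trametinib (all genes 0.01), -0.20 under bromosporin (all genes -0.12), -0.17 under WT161 (all genes 0.03) and -0.13 under SGC-CBP30 (all genes 0.03). Under MC1568, where neither MYC nor MYCN passed, it was -0.32 (all genes 0.26), the widest gap of the 20 compounds. TFAP4, a helix-loop-helix factor that MYC activates, was lower under bromosporin (-1.94), LAQ824 (-1.82) and WT161 (-1.31), from a mean of 39.5 TPM in 0.2% and 45.4 TPM in 0.1% DMSO. CCND2, a G1 cyclin, was lower under LAQ824 (-1.80). ODC1 (1.28) and IMPDH2 (1.31), enzymes of polyamine and guanine nucleotide synthesis, were higher under LAQ824, which had the largest falls of MYC and MYCN. RRS1 (-1.56), MYBBP1A (-1.18) and PES1 (-1.06), which serve ribosome synthesis, were lower under bromosporin. LDHA, the lactate dehydrogenase subunit and also a hypoxia target, was at 3521 and 3434 TPM under Cpd50, against a mean of 400 TPM in 0.2% and 410 TPM in 0.1% DMSO (3.10, limma adjusted p = 1.26e-09). TFRC was higher (1.01) and RRS1 lower (-1.25) under Cpd50. At 24 h of entinostat 11 of the 32 targets were at least 2-fold lower and 1 higher (median -0.80, all genes 0.10). Of all genes 6.06% were lower and 16.4% higher there. At 1 h and 6 h of entinostat 0 targets passed that line in either direction. Under N1302, 4 targets were lower and 2 higher (median -0.55, all genes -0.11), against 19.3% and 11.6% of all genes.

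Near the MYC and MYCN genes 7 of 10 listed neighbours were tested and 3 of 140 pairs (2.14%, against 3.28% of all pairs) passed, all FAM49A, which lies beyond MYCN on chromosome 2. It was at 83.3 and 81.9 TPM under LAQ824 (2.57, limma adjusted p = 9.91e-07), 91.1 and 31.1 TPM under WT161 (1.95) and 32.9 and 25.2 TPM under MC1568 (1.08, with 6.87% of genes called), against a mean of 12.6 TPM in 0.2% and 13.7 TPM in 0.1% DMSO. The same LAQ824 samples held 10.6 and 13.02 TPM of MYCN. PVT1, the noncoding gene beside MYC, was at 4.97 and 5.14 TPM under LAQ824, against a mean of 9.07 TPM in 0.2% and 10.4 TPM in 0.1% DMSO, and did not pass (-0.82 ± 0.37, limma adjusted p = 0.0658). Bromosporin gave 3.13 and 6.81 TPM of PVT1 and did not pass (-0.91, limma adjusted p = 0.0571). UNC0638 gave 31.9 TPM at 10 µM, where MYC was at 45.8 TPM, and 8.64 TPM at 1 µM, and did not pass for either gene.

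Over the 44 screen samples the genes whose log2(TPM + 1) was most like that of MYC were HMGA2 (Pearson r = 0.90), ZNF668 (0.89) and SLF2 (0.89). For MYCN they were RUNX2 (0.96), TSHZ3 (0.96) and C10orf71 (0.95). Between MYC and MYCN r was 0.84, between MYC and MXD1 -0.83 and between MYCN and MXD1 -0.79. These points share compounds, controls and flow cells and are a description. The markers of FP-RMS moved with the network in part. Of 10, 5 were lower and 1 higher under LAQ824 (25.3% of all genes called). Bromosporin had 4 lower (13.0%) and WT161 3 lower (10.4%). Trametinib had 1 lower (1.14%), Cpd50 1 higher and 1 lower (2.12%) and SGC-CBP30 0 (1.23%). LSD-690 (1 higher) and UNC0638 (1 lower) had a marker called but no member. The summed level of the markers in treated samples ran from 1093 to 3356 TPM. The part of cell state in the network changes was not tested.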

How the data were processed

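RNA-seq libraries of 52 samples were deposited as 1 table per sample, with TPM values for 27043 genes computed by the authors. According to the study's methods, reads were aligned to hg19 with STAR 2.5.3a and quantified with RSEM 1.3.0 on the UCSC reference. TPM values were whole multiples of 1 read per gene for 23645 of 23645 genes above 0 (tolerance 0.01 reads), and reads were recovered from them. The step that gave this form is not given in the sources used here. The flow cell is the one named with each deposited table.

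Genes with at least 1 TPM in 2 or more of 52 samples were tested (16359). Values were analysed as log2(TPM + 1), so differences of low genes are understated. limma 3.58.1 (R 4.3.3) was fitted on 40 compound samples and 2 DMSO means, two-sided, with Benjamini-Hochberg adjustment over all genes within a compound. The axes were compared over compound means. Comparisons with 1 sample per group have no test, and their 95% intervals and all depths cover counting error only. On simulated data for bromosporin, 195 of 200 changed genes of 16350 were recovered with 0 false calls for that compound and 2 in the other compounds. Recovery near the 2-fold line, or with differences between doses or flow cells, was not tested separately. Figures used Python 3.11.15 with matplotlib 3.10.9.

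Screen DMSO libraries with the same replicate number shared a flow cell. The flow cell contrast was 4.08 times counting noise over 10378 genes, while deviations of same-numbered libraries over all tested genes had r = 0.07. The DMSO comparison was therefore also fitted with the replicate number as a block. Members were named in every comparison, other genes were the 3 most correlated with MYC and MYCN and, of each list, up to 4 genes per compound with the largest change that passed. Members and lists were chosen with earlier results of these data known. Alternatives were another pseudocount, filter, scaling, reference, covariate and sample set, and, added after the data were seen, limma with voom weights on the recovered reads.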

Additional observations from a re-analysis of the deposited data

Results flagged for a closer look

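In the entinostat series MYC changed sign between times. It was above DMSO at 1 h by 0.50 and at 6 h by 0.24 on the log2(TPM + 1) scale, and at 24 h the difference was -0.64. MXD4 changed sign as well, with -0.98 at 6 h and 1.02 at 24 h. Each time has 1 sample, and the difference between times was not tested. Among the 7 acetylation axis compounds no member had a compound that stood apart by Dixon's criterion (critical value 0.568).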

How the results depend on the processing

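The number of member and compound pairs that passed was 15, between 14 and 16 under another pseudocount, scaling or filter, with 4 separate DMSO libraries, with dose as a covariate and with voom weights, and 13 to 15 when 1 DMSO library was left out. It was 8 when each compound was fitted with its own samples and DMSO only, which leaves few samples per fit, and 26 with no fold threshold. The share of all genes under these settings is not given here. On the flow cell without DMSO 9 pairs became 5 with its other compounds as reference. There the MYC calls of SGC-CBP30, trametinib and WT161 and the MYCN call of WT161 fell under 2-fold. That reference includes the other compounds that lowered the same gene, so the part of the flow cell cannot be told apart. Between the axes, where passing means an adjusted p below 0.05 with no fold threshold, 0 members passed. With a mean TPM of at least 5, 1 passed, with 833 of 11106 genes, and at the high dose alone 1, with 1614 of 16359 genes. Leaving out MC1568 gave 2 members and 2503 genes, OJI-1 2 and 3056, and Merck60 5 and 2673. Leaving out any other compound gave 0 members and 0 genes. MYCN between the axes was -0.95 and passed with the mean TPM filter (-0.95, under 2-fold, limma adjusted p = 0.0451) and at the high dose (-1.29). Leaving out 1 compound gave -1.09 to -0.75 for MYCN and -0.74 to -0.36 for MYC, and the cause was not tested. With no filter on low values the MYC call of trametinib was lost (limma adjusted p = 0.063). No result reversed under the alternatives run. With the replicate number as a block, 0 members passed between the DMSO concentrations, as without it, and 1768 instead of 1548 genes were below 0.05 with no adjustment. Under N1302 MYC was -1.42 and MYCN -1.45 with median-ratio scaling, and -2.02 and -2.11 with both 6 h DMSO samples. Under entinostat at 6 h MYC was 0.37 and 0.53 and MYCN -0.64 and -0.40 under the same settings, and at 24 h MYC was -0.54 with that scaling. Samples of the flow cell with 14 compounds and no DMSO had the lowest depth, down to 5737939 reads. Those of the other flow cell with no DMSO (GSKLSD1 and UNC-1215) had 32584459 to 41415071 reads.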
